A study of Homo sapiens with 12 samples.

Results

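KP4 and MiaPaca2 are established human pancreatic ductal adenocarcinoma cell lines, and they were compared here in the state in which MEK is inhibited. The comparison used the 3 KP4 and the 3 MiaPaca2 libraries made after 48 h in 100 nM trametinib, 6 of the 12 libraries of the series, which were chosen by their labels. All genes with enough counts to be tested entered it, 16133 of the 58735 in the deposited count table. The other 6 libraries, 3 of each line after 48 h in the solvent DMSO, gave the same comparison without the inhibitor and share no library with it. Cells of all 4 groups grew in DMEM with fetal bovine serum, an antibiotic mix and HEPES, and polyadenylated RNA was sequenced. The labels give no genotype of either line, and each line stands for 1 tumour, so a difference between the lines cannot be assigned to any single gene. They also do not say whether the 3 libraries of a group came from separate cultures, so every p-value rests on the spread between libraries that may be technical replicates. Total counts per library ran from 20293688 to 28018129.

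RAS proteins signal through the RAF kinases to MEK1 and MEK2, and these switch on the ERK kinases, which carry growth signals into the nucleus. Trametinib is an allosteric inhibitor of MEK1 and MEK2. Genes that ERK drives directly, such as SPRY4, DUSP6 and the ETS factors ETV4 and ETV5, fall when MEK is blocked and are used as readouts of the pathway. Cells also hold an antiviral programme in which interferon receptors activate a complex of transcription factors, IRF9 among them, that binds a repeated GAAA element in the promoters of interferon-stimulated genes. That programme raises antiviral proteins, chemokines and the machinery that presents peptides on MHC class I.

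Levels are counts scaled by TMM to a common depth (CPM), given for libraries 1, 2 and 3 in turn or as mean ± SD, with n = 3 libraries per group throughout. Line differences are log2 values of KP4 minus MiaPaca2, so a negative value means a higher level in MiaPaca2, and they are given with their standard error (SE) where shown after ±. A gene passed when its Benjamini-Hochberg adjusted p in edgeR's quasi-likelihood test was under 0.05, and a 2-fold call also needed a log2 size of at least 1.

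The libraries themselves differed in a way that bears on the genes higher in KP4. The MiaPaca2 libraries carried almost every transcript that KP4 expressed, whereas the KP4 libraries lacked many transcripts of MiaPaca2. Of 9247 protein-coding genes with at least 10 CPM in KP4 under trametinib, 0 were without counts in MiaPaca2 and 8 stood below 0.25 of the KP4 level there. In the other direction, 304 of 9521 genes stood below 0.25 of the MiaPaca2 level in KP4 and 18 had 0 counts. The 1st percentile of this ratio was 0.492, 0.491 and 0.493 in the MiaPaca2 trametinib libraries and between 0.0273 and 0.0301 in the KP4 trametinib libraries. In the DMSO libraries of MiaPaca2 it was lower, 0.255, 0.355 and 0.248, and the middle value belongs to replicate 2. That library also lay nearer to KP4 than its replicates on the first principal component, at 62.1 against 79.2 and 79.3. Its counts differed from theirs with a chi-square of 15.9 and 14.5 for each degree of freedom, while its replicates 1 and 3 differed from each other with 8.33 and pairs within the other 3 groups gave 2.03 to 2.97. Protein-coding genes that were at least 1.5 log2 units higher in KP4 in DMSO and at 10 CPM or more in KP4 in both states, 146 in all, kept a median ratio of 0.517 to 0.527 in the MiaPaca2 trametinib libraries. For the 40 genes at least 2 units higher it was 0.401 to 0.423, and for the 13 genes at least 2.5 units higher it was 0.276 to 0.306. Among the 9247 genes the lowest ratios of MiaPaca2 to KP4 mean levels under trametinib were 0.0627 for SLITRK4 and 0.0884 for MMP10. Whether RNA of KP4 cells is present in the MiaPaca2 libraries was not tested. This ratio is each gene's line difference in another form, and its percentiles describe the genes together, not each gene. What part its percentiles have in the differences in favour of KP4, and in their change with trametinib, was not tested.

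**Figure D1:**
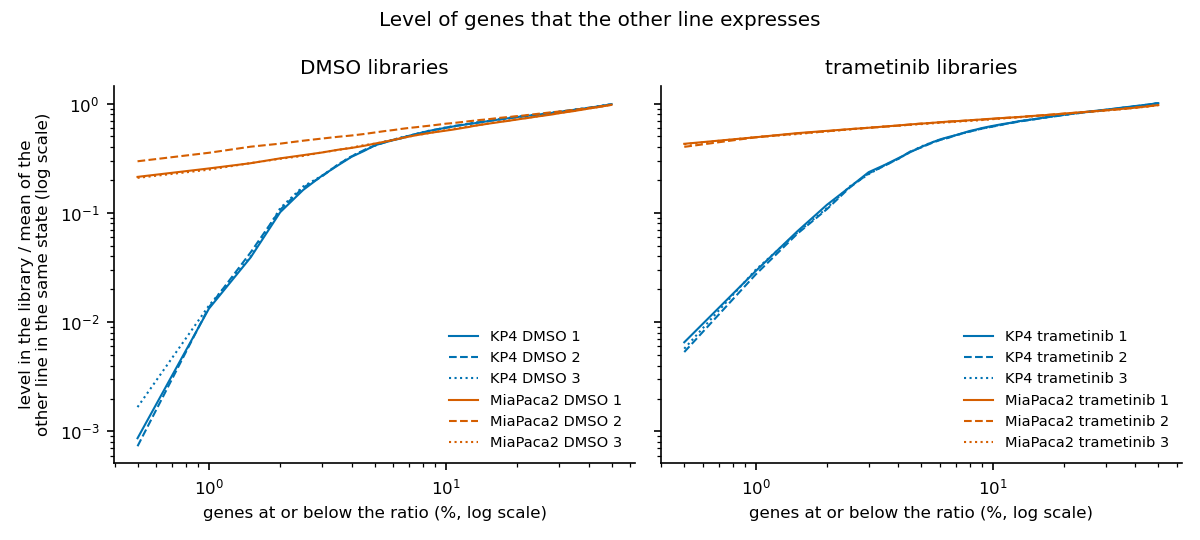
Level of each gene relative to its mean in the other line in the same state, for protein-coding genes with at least 10 CPM in that other line. The ratio is on a log vertical axis against the percent of genes at or below it on a log horizontal axis, with DMSO libraries in the left panel, trametinib libraries in the right panel and 1 line per library. The 3 MiaPaca2 trametinib curves lie together with a 1st percentile of 0.491 to 0.493, and the 3 KP4 trametinib curves have a 1st percentile of 0.0273 to 0.0301.

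Under trametinib the lines differed in most tested genes, and more of the large differences lay on the MiaPaca2 side. edgeR called 8909 genes (55.2% of those tested), 4191 higher in KP4 (26%) and 4718 higher in MiaPaca2 (29.2%). With the 2-fold limit 2263 genes (14%) remained, 432 higher in KP4 (2.68%) and 1831 higher in MiaPaca2 (11.3%). In DMSO 10170 genes were called (63%), 5148 higher in KP4 (31.9%) and 5022 higher in MiaPaca2 (31.1%). The 2-fold calls in DMSO were 1428 in KP4 (8.85%) and 1703 in MiaPaca2 (10.6%), a balance that the trametinib state did not show. The 6 trametinib libraries did not overlap between the lines for 10392 genes (64.4%). The median difference of all genes was -0.01 under trametinib and 0.02 in DMSO, and the called genes had a median size of 0.48 and 0.59.

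Most 2-fold differences under trametinib were already there in DMSO. Of the 432 genes 2-fold higher in KP4 under trametinib, 326 (75.5%) were also 2-fold higher in DMSO, where they made up 22.8% of the longer list of 1428. On the MiaPaca2 side 1195 of 1831 (65.3%) were shared, 70.2% of the DMSO list. These 2 sets are called kept below. The change of the line difference with trametinib was tested as the interaction of line and treatment, and edgeR called it for 5828 genes (36.1%), 2616 towards KP4 (16.2%) and 3212 towards MiaPaca2 (19.9%). With RLE scaling these numbers were 3088 and 2815, so the side with more calls depends on the scaling. An interaction of at least 2-fold was called for 1193 genes (7.39%), 333 of them towards KP4 (2.06%) and 860 towards MiaPaca2 (5.33%).

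Genes whose 2-fold difference was absent in DMSO (size under 1) and that had a called interaction of at least 2-fold are called emerged. There were 245 emerged genes on the MiaPaca2 side, with a median difference of -1.77 under trametinib and 0.14 in DMSO, and 19 on the KP4 side. Genes with a 2-fold call in DMSO, a size under 1 under trametinib and such an interaction are called narrowed, whichever line was then higher. There were 320 narrowed genes that had been higher in KP4 and 129 that had been higher in MiaPaca2. Without MiaPaca2 DMSO replicate 2 the narrowed genes on the KP4 side numbered 524. A further 26 genes turned from 2-fold higher in KP4 to 2-fold higher in MiaPaca2, and 1 gene, RPRML, turned the other way. The median response to trametinib of the emerged MiaPaca2 genes was 0.50 in KP4 and 2.31 in MiaPaca2, and that of the narrowed KP4 genes was 0.02 and 1.44. For genes that KP4 expressed, the 1st percentile of the ratio of MiaPaca2 to KP4 was higher under trametinib too. It was 0.248 to 0.355 in the DMSO libraries and 0.491 to 0.493 in the trametinib libraries. The part of this rise in the 1.44 was not tested. Emerged genes on the KP4 side had a median response of 0.52 in KP4 and -1.39 in MiaPaca2.

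**Figure D2:**
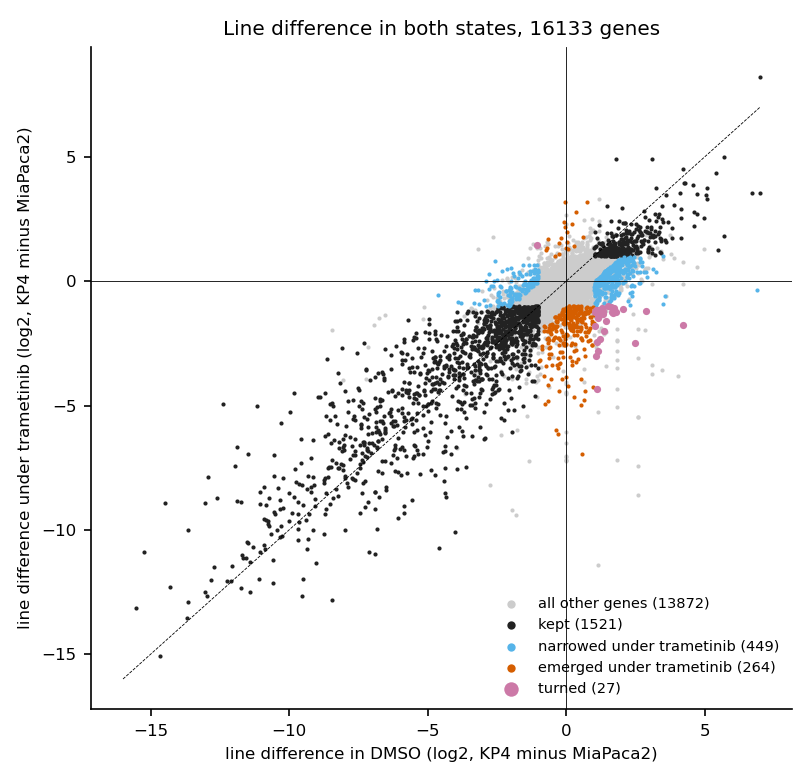
Line difference (log2, KP4 minus MiaPaca2) in DMSO on the horizontal axis and under trametinib on the vertical axis for the 16133 genes tested, coloured by class, with the number of genes in brackets and a dashed line where both are equal. Kept genes (1521) follow the dashed line, mostly at the lower left, and the 264 emerged genes lie mostly below 0 on the vertical axis near 0 on the horizontal axis.

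The 2 lines answered the inhibitor at the level of ERK target genes. SPRY4, which encodes a feedback inhibitor of RAS signalling, was at 206 CPM in KP4 and 229 in MiaPaca2 in DMSO. Under trametinib its libraries held 2.00, 2.09 and 2.26 CPM in KP4 and 4.06, 3.26 and 3.10 in MiaPaca2, a difference of -0.72 ± 0.14 (SE; edgeR adjusted p = 6.8e-05). ETV5, an ETS transcription factor driven by ERK, stood at 2.22 CPM in KP4 and 2.13 in MiaPaca2, and its line difference did not pass (edgeR adjusted p = 0.906). The related ETV4 was at 1.08 and 0.73 CPM (0.56; edgeR adjusted p = 0.112), with 1.26, 0.642 and 0.286 CPM in the MiaPaca2 libraries. Single libraries decided its value: without MiaPaca2 trametinib replicate 1 the difference was 1.27 (edgeR adjusted p = 0.000815), without replicate 3 it was 0.15 (0.68), and DESeq2 called it with all libraries (0.0486). The ERK phosphatase DUSP6 was at 0.86 and 0.33 CPM (edgeR adjusted p = 0.184). DESeq2 called DUSP6 with an adjusted p of 0.00472, in a range of 0.000508 to 0.382 over 21 alternative settings, and its libraries did not overlap, with 0.878, 0.673 and 1.04 CPM in KP4 and 0.162, 0.346 and 0.490 in MiaPaca2. FOSL1, the AP-1 subunit FRA1, was at 75.1 and 70.3 CPM and did not pass (edgeR adjusted p = 0.224), though it did in a fit to the 6 trametinib libraries alone (0.0468, in a range up to 0.402). SPRY4, ETV4, ETV5 and DUSP6 were thus low in both lines, and their low counts limit how small a line difference can be seen.

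Other MAPK output genes differed, and more of them were higher in MiaPaca2. Of 40 on the list, 6 were higher in KP4 and 21 in MiaPaca2, beside 26% and 29.2% of all tested genes. The median of the 40 was -0.39 under trametinib and 0.31 in DMSO, beside -0.01 and 0.02 for all genes. The interaction was called towards MiaPaca2 for 24 of the 40 and towards KP4 for 4, beside 19.9% and 16.2% of all tested genes. The summed level of the 40 was 1560 to 1585 CPM in the KP4 trametinib libraries and 2420 to 2458 CPM in those of MiaPaca2. CCND1, cyclin D1, changed the order of the lines, as FOS did: it was at 453 CPM in KP4 and 302 in MiaPaca2 in DMSO. Under trametinib it was at 145, 153 and 143 CPM in KP4 and 199, 209 and 200 CPM in MiaPaca2, a difference of -0.46 ± 0.05 (edgeR adjusted p = 4.7e-09) and an interaction of -1.05. FOS, an immediate early AP-1 gene, turned from 6.28 CPM in KP4 and 2.85 in MiaPaca2 to 0.622 and 4.34 CPM, with a trametinib difference of -2.80. AREG, which encodes the EGFR ligand amphiregulin, was at 4.98 CPM in KP4 and 73.2 in MiaPaca2 (-3.88). The largest differences on the list were those of ELF3, an epithelial ETS factor (-6.39), and EPHA4, an ephrin receptor (-6.06), both already far higher in MiaPaca2 in DMSO. On the KP4 side TNC, the matrix protein tenascin C, was the single 2-fold call at 1.22, and MYC differed by 0.18 (edgeR adjusted p = 0.0019).

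The genes of the cascade itself differed often and mostly by small sizes. Of 28 tested components 11 were higher in KP4 and 12 in MiaPaca2, beside 26% and 29.2% of all tested genes, and 2 passed 2-fold, both in MiaPaca2: RASGRP3, a RAS exchange factor (-4.26), and RPS6KA2, an ERK-activated kinase (-1.36). NRAS was at 129 CPM in KP4 and 128 in MiaPaca2, and HRAS differed by 0.23. Of the kinases that trametinib binds, MAP2K1 (MEK1) was higher in KP4 by 0.37 and MAP2K2 (MEK2) was higher in MiaPaca2, at 195 and 323 CPM (-0.73). MAPK3, which encodes an ERK kinase, was higher in MiaPaca2 (-0.79).

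Interferon-stimulated genes differed between the lines under trametinib without exception. All 46 genes of the list were higher in MiaPaca2 under trametinib, 42 of them 2-fold. In all 46 the libraries of the lines did not overlap, beside 64.4% of all tested genes. The median difference of the 46 was -2.33, beside -0.01 for all genes, where 29.2% of tested genes were called higher in MiaPaca2 and 11.3% at 2-fold. In DMSO their median was -0.00, with 16 higher in KP4 and 16 higher in MiaPaca2. Their summed level in the KP4 libraries was 869 to 890 CPM in DMSO and 3738 to 3999 CPM under trametinib. In the MiaPaca2 libraries it was 826 to 879 CPM and 14873 to 15645 CPM. Of the 46 genes, 44 were called up with trametinib in KP4 and 45 in MiaPaca2. The shares of all tested genes called up are not given here. The list was compiled with results of these libraries known, so it is no independent evidence of the direction. The interaction was called towards MiaPaca2 for 31 genes, beside 19.9% of all tested genes. Towards KP4 it was called for 2, beside 16.2% of all tested genes. These 2 were the GTPase gene MX2 and IFITM2, which encodes an inhibitor of virus entry. Of 15 immune cell markers 6, CD3E and TYROBP among them, had 0 counts in all 12 libraries. The 15 summed to 1.48 to 1.98 CPM in KP4 and 5.04 to 6.99 CPM in MiaPaca2 under trametinib, and their part in the interferon result was not tested.

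Some members had a small line difference before treatment, and others were higher in MiaPaca2 throughout. Of the 46, 20 were emerged genes, 13 were kept and 5 turned (IFI35, IFI44, DDX60, HERC5 and CMPK2). The narrowed class held 2, MX1 and IRF7, which were 2-fold higher in KP4 in DMSO. Under trametinib both were higher in MiaPaca2, by less than 2-fold. ISG15, a ubiquitin-like antiviral modifier, is shown here, as are IFIT1, IFITM1 and IFI27, because of its values. It was at 23.1 CPM in KP4 and 24.8 in MiaPaca2 in DMSO, where edgeR's adjusted p was 0.172. Under trametinib its libraries held 195, 177 and 194 CPM in KP4 and 1026, 1036 and 1081 CPM in MiaPaca2, a difference of -2.47 ± 0.05 (SE; edgeR adjusted p = 1.6e-22) and an interaction of -2.37. IFI27, a mitochondrial interferon-induced protein gene, went from 0.57 CPM in KP4 and 0.258 in MiaPaca2 to 4.39, 2.35 and 4.78 CPM in KP4 and 142, 144 and 162 CPM in MiaPaca2. Its difference was -5.28 ± 0.16 (edgeR adjusted p = 7.3e-12), and no KP4 library came near the MiaPaca2 range. IRF9, a factor of the complex that carries the interferon signal, was low in both lines, at 2.25, 2.20 and 2.41 CPM in KP4 and 3.82, 3.06 and 3.51 CPM in MiaPaca2 (-0.60; edgeR adjusted p = 0.016). With no filter on low counts its edgeR adjusted p was 0.0537, in a range of 0.00825 to 0.0692 over 21 alternative settings.

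Other members, SAMD9L apart, were far lower in KP4 in both states. BST2, which encodes tetherin, a protein that holds budding viruses at the cell surface, had 2 counts over the 3 KP4 DMSO libraries and 1.76 CPM in MiaPaca2 DMSO. Under trametinib it reached 1.65, 1.87 and 1.37 CPM in KP4 and 168, 182 and 196 CPM in MiaPaca2, a difference of -6.80 ± 0.13 (edgeR adjusted p = 7.4e-19). GBP2, a guanylate-binding protein gene, was at 0.562, 0.411 and 0.408 CPM in KP4 and 50.1, 50.1 and 55.3 CPM in MiaPaca2 (-6.79). SAMD9L, an antiviral translation inhibitor gene, was at 0.422, 0.224 and 0.408 CPM in KP4 and 29.3, 27.3 and 27.7 CPM in MiaPaca2 (-6.30). In DMSO SAMD9L was low in both lines, at 0 CPM in each KP4 library and 0.247, 0.426 and 0.310 CPM in MiaPaca2. IFITM1 held 5.06, 3.74 and 3.71 CPM in KP4 and 295, 284 and 299 CPM in MiaPaca2, and IFIT1, which binds foreign RNA ends, held 168, 148 and 174 against 1022, 1012 and 1059 CPM. The DMSO difference was -6.72 for IFITM1 and -2.53 for IFIT1, so for both the line difference under trametinib (-6.13 and -2.66) was close to that in DMSO, and neither interaction passed. The smallest differences on the list were those of IRF9, IRF7 (-0.69) and IFITM3 (-0.82).

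**Figure D3:**
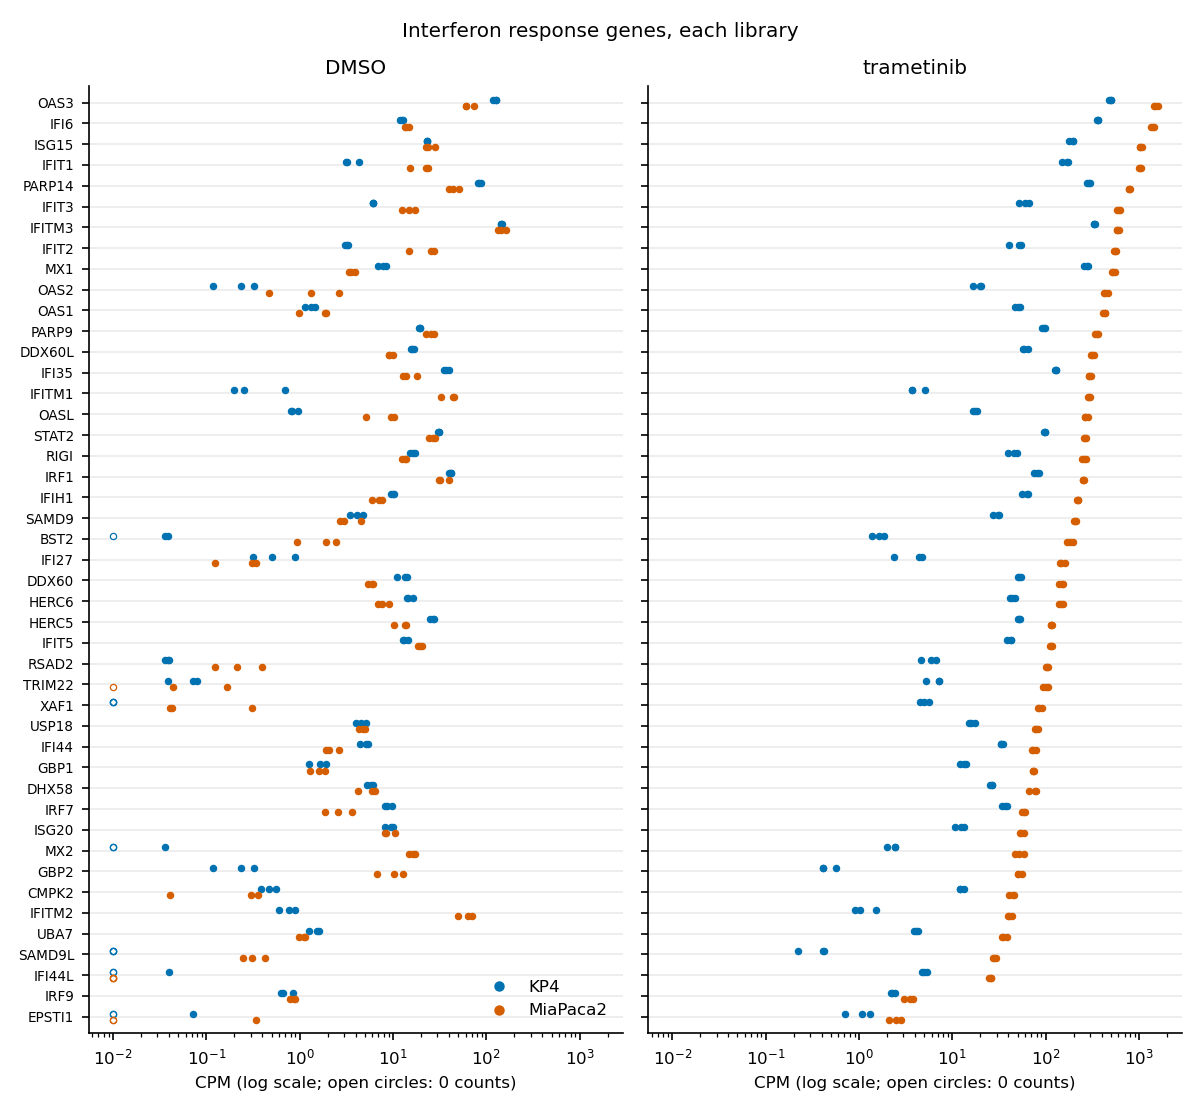
Levels of the interferon response genes, all but 1 of the 46, in each library in CPM on a log axis, with DMSO libraries in the left panel and trametinib libraries in the right panel, KP4 in blue and MiaPaca2 in orange, and open circles for 0 counts. In DMSO the colours are mixed from gene to gene, and under trametinib the 3 MiaPaca2 libraries lie to the right of the 3 KP4 libraries for every gene drawn.

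The promoters of these genes were searched for the element that the IRF9 complex is known to bind. RefSeq promoter sequence on GRCh38.p14 was matched by symbol for 34 of the 46 genes. The letters GAAANNGAAA, searched on both strands within the 250 bases before the start of transcription, with N for any base, occurred in 21 of the 34 (61.8%). They occurred in 3.07% of all 27305 RefSeq promoters and in 2.29% of the 11591 promoters of tested genes. Among emerged genes on the MiaPaca2 side 24 of 154 matched promoters held them (15.6%), among kept genes 2.62% on the MiaPaca2 side and 2.60% on the KP4 side. The emerged set includes interferon genes, so these shares overlap. The 4 windows below, each 140 bases and ending at the base before the start, come from chr1:1013357-1013496 (ISG15, plus strand), chr14:94110596-94110735 (IFI27, plus strand), chr19:17405631-17405770 (BST2, minus strand) and chr11:313900-314039 (IFITM1, plus strand). They are printed because their genes show both patterns: ISG15 and IFI27 did not pass the test in DMSO, and BST2 and IFITM1 were far lower in KP4 in both states. Capitals mark the match on either strand, read as TTTCNNTTTC where it lies on the other strand, and overlapping matches run together in BST2 and ISG15. A match is a description of the letters only.
ISG15: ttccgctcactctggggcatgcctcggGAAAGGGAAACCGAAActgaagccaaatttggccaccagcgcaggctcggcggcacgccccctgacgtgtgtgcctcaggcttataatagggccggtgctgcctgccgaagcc
IFI27: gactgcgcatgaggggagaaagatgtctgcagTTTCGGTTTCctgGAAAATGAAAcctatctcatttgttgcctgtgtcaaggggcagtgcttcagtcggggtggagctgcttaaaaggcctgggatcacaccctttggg
BST2: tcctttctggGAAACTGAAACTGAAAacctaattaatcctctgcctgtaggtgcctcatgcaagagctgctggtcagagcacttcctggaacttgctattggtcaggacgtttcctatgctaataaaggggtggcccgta
IFITM1: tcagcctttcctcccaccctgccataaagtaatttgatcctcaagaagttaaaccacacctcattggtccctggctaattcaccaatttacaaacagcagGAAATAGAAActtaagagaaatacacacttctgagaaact
The first marked base lies 113 bases before the start in ISG15, 108 in IFI27, 130 in BST2 and 40 in IFITM1.

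Genes of antigen presentation by MHC class I and class II, many of which interferon also raises, followed the same direction with a smaller median. Of 26 tested, 24 were higher in MiaPaca2, 16 of them 2-fold, beside 29.2% and 11.3% of all tested genes. CIITA, the class II activator, and CD74, the class II chaperone, did not pass. Among the 24 are class II genes at low levels, such as HLA-DRA, at 0.378 CPM in KP4 and 1.07 in MiaPaca2 under trametinib (-1.48) and at 0.33 and 2.54 CPM in DMSO. The median was -1.09 under trametinib and 0.01 in DMSO, and 12 of the 26 were emerged genes. HLA-B, a class I heavy chain, was at 288, 275 and 282 CPM in KP4 and 1032, 993 and 1061 CPM in MiaPaca2 (-1.87 ± 0.05), although HLA genes share near-identical sequence, so reads may be split between them. NLRC5, the activator of class I genes, had been higher in KP4 in DMSO by 0.84 and was at 35.5, 34.5 and 34.4 CPM in KP4 and 139, 136 and 132 CPM in MiaPaca2 under trametinib (-1.96). B2M, the light chain of class I, chosen after its values were seen, held 353, 339 and 342 CPM in KP4 and 823, 830 and 861 CPM in MiaPaca2 (-1.28 ± 0.04, edgeR adjusted p = 1.3e-18). The smallest called differences were those of the chaperone TAPBP (-0.56), the immunoproteasome subunit PSMB8 (-0.44) and the peptide trimmer ERAP1 (-0.22), and ERAP1 did not pass without KP4 trametinib replicate 1 (edgeR adjusted p = 0.0712, in a range from 4.9e-08 over 21 alternatives). The letters GAAANNGAAA occurred in 7 of 22 matched promoters of this list (31.8%).

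Chemokine and cytokine genes were higher in MiaPaca2 as well. Of 24 tested, 22 were higher in MiaPaca2 and 20 were 2-fold, beside 29.2% and 11.3% of all tested genes, and IL11 and IL18 did not pass. The list median was -2.84 under trametinib and -0.21 in DMSO. The interaction was called towards MiaPaca2 for 15 and towards KP4 for 0, beside 19.9% and 16.2% of all tested genes. TNFSF10, the death ligand TRAIL, which interferon induces, was at 1.48, 0.635 and 1.04 CPM in KP4 and 139, 132 and 144 CPM in MiaPaca2 (-7.02 ± 0.19). CSF3, the granulocyte growth factor, had 0 counts in KP4 under trametinib and was at least 31.1-fold higher in MiaPaca2, at 1.10, 1.78 and 0.530 CPM. The neutrophil attractant CXCL6 had 0 counts in all 6 KP4 libraries and was at least 16.5-fold higher in MiaPaca2 under trametinib, with reads that CXCL paralogs may share. LIF, an IL-6 family cytokine, turned: it was at 157 CPM in KP4 and 55.4 in MiaPaca2 in DMSO, and at 35.3, 38.6 and 34.5 CPM in KP4 and 72.6, 75.9 and 70.6 CPM in MiaPaca2 under trametinib (-1.01). The smallest differences were those of CXCL16 (-0.50) and the monocyte attractant CCL2 (-0.17, edgeR adjusted p = 0.0083). The CCL2 libraries overlapped, at 144, 135 and 137 CPM in KP4 and 144, 161 and 164 CPM in MiaPaca2. Its edgeR adjusted p was 0.0512 without KP4 trametinib replicate 2 and 0.0739 without MiaPaca2 trametinib replicate 3, in a range from 4.25e-05 over 21 alternatives.

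The genes that separated the lines most were transcripts of MiaPaca2 that KP4 lacked. ADIRF, an adipogenesis regulatory factor gene (ENSG00000148671, chr10:86968192-86983934), had 0 counts in all 6 KP4 libraries and was at 53.2, 61.3 and 62.3 CPM in MiaPaca2 under trametinib, at least 1615-fold higher. CAVIN2, which encodes a coat protein of caveolae (ENSG00000168497, chr2:191834302-191847255), also had 0 counts in KP4 and was at 38.9, 38.7 and 37.6 CPM, at least 1052-fold higher. DDIT4L, a stress-induced inhibitor of mTOR signalling (ENSG00000145358, chr4:100185870-100190782), had 1 count over the KP4 trametinib libraries and was at 160, 149 and 159 CPM in MiaPaca2, a count ratio of 12834 with a 95% interval of 2303 to 506956. COL1A2, a chain of type I collagen (ENSG00000164692, chr7:94394561-94431232), had 3 counts in KP4 and was at 206, 205 and 217 CPM in MiaPaca2, a count ratio of 5749 (95% interval 1967 to 27883). These genes were present or absent as in DMSO, with MiaPaca2 DMSO means of 66.3, 64.1, 238 and 101 CPM in turn. The others among the 10 largest were HTATIP2, AKR1C1, SERPINB1, CCDC190, PCSK1N and ARMCX2, each with 0 counts in KP4 under trametinib and at least 702-fold to 996-fold higher in MiaPaca2. Outside the protein-coding genes, UCA1, a long noncoding RNA studied in carcinomas, had 0 counts in KP4 and 167, 171 and 174 CPM in MiaPaca2, at least 4678-fold higher.

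**Figure D4:**
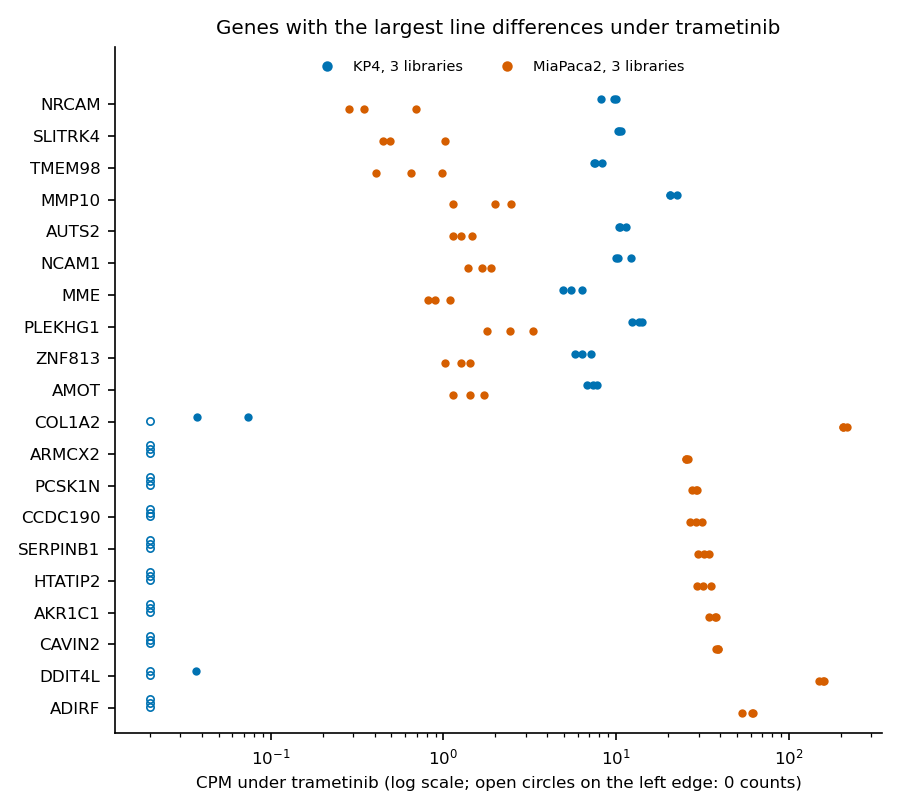
CPM under trametinib on a log axis for the 10 protein-coding genes with the largest and the 10 with the smallest line difference, with 3 KP4 libraries in blue and 3 MiaPaca2 libraries in orange, and open circles on the left edge for 0 counts. The 10 genes higher in MiaPaca2 have at most 3 counts over the KP4 libraries, and the 10 genes higher in KP4 all have counts in MiaPaca2.

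Genes without any count in the other line were found mostly on the KP4 side. Among protein-coding genes with at least 5 CPM in the other line, 32 of 10636 had 0 counts in the 3 KP4 trametinib libraries, which allows a level of up to 0.0365 CPM, and 0 of 10272 had 0 counts in the MiaPaca2 trametinib libraries. At a limit of 1 CPM the numbers were 77 and 1. Of the 32, 25 had 0 counts in all 6 KP4 libraries. In the RefSeq promoters of 20 of these 25, a ratio of observed to expected CG dinucleotides of at least 0.6 over 250 bases was found in 10 (50%), compared with 84.6% of 8778 promoters of genes with at least 5 CPM in MiaPaca2. The share was also low in other sets: emerged genes on the MiaPaca2 side had 55.2%, and kept genes had 58.4% on the MiaPaca2 side and 60.9% on the KP4 side. The promoters of SERPINB1, a protease inhibitor gene (ENSG00000021355, chr6:2832332-2842006), and AKR1C1, a steroid and carbonyl reductase gene (ENSG00000187134, chr10:4963253-4983283), are printed as a CG-rich and a CG-poor case, with CG dinucleotides in capitals. The windows of 150 bases are chr6:2841864-2842013 (SERPINB1, minus strand) and chr10:4963265-4963414 (AKR1C1, plus strand) of GRCh38.p14. SERPINB1 had 29.7, 34.3 and 32.3 CPM in MiaPaca2 and AKR1C1 had 34.3, 37.2 and 37.6 CPM, with reads that AKR1C2 may share. SERPINB1 is among the 25, and AKR1C1, among the 32, had 2 counts in KP4 DMSO. DNA methylation was not measured in these samples.
SERPINB1: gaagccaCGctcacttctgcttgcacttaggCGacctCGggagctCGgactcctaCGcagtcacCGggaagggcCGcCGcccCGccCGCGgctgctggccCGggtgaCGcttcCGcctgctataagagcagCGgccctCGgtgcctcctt
AKR1C1: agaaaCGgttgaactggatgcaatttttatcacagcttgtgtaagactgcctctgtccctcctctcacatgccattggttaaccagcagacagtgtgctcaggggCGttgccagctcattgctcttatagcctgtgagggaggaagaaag
The window of SERPINB1 holds 16 CG dinucleotides and that of AKR1C1 holds 2.

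Absent genes lay next to each other in 5 places. On chromosome 9, 3 of 4 neighbouring genes between 98731329 and 99154192 (GRCh38) had 0 counts in all 6 KP4 libraries: ANKS6, a ciliary protein gene, GALNT12, a glycosyltransferase gene, and TGFBR1, the type I receptor of TGF-beta. These were at 14.1, 15.4 and 14.0 CPM, 1.54, 1.48 and 1.88 CPM, and 11.1, 10.2 and 9.42 CPM in MiaPaca2 under trametinib, and TGFBR1 was at least 280-fold higher there. The other runs were pairs, the metallothioneins MT1M and MT1A on chromosome 16 and the zinc finger pairs ZNF430 and ZNF714, ZNF569 and ZNF570, and ZNF571 and ZFP30 on chromosome 19. All genes of these runs were chosen after their values were seen, and the metallothionein and zinc finger families share near-identical sequence. No such run was found for genes of KP4 in the MiaPaca2 libraries. There, 1 of 11815 protein-coding genes with at least 1 CPM in KP4 under trametinib had 0 counts in all 6 libraries. With 1 such gene no run can form at that limit, so the absence of runs says nothing further about the lines. CDKN2A and CDKN2B, inhibitors of cyclin-dependent kinases, and MTAP, their neighbour on 9p21, had 0 counts in all 12 libraries. Of the other genes near them 5 were tested, and all 5 were higher in KP4, beside 26% of all tested genes. The median of the 5 was 0.67 under trametinib and 1.53 in DMSO.

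Transcripts of the tumour suppressor SMAD4, the common mediator of TGF-beta signalling, were much lower in KP4. SMAD4 was at 1.62, 2.32 and 1.89 CPM in KP4 and 23.6, 24.9 and 24.0 CPM in MiaPaca2 (-3.64 ± 0.21, edgeR adjusted p = 5.5e-10). With TGFBR1 at 0 counts, KP4 thus had little or no transcript of 2 genes of the TGF-beta pathway. Among 30 chromatin regulators 14 were higher in KP4 and 8 in MiaPaca2, beside 26% and 29.2% of all tested genes. The 8 are thus near the share of all genes. At 2-fold there was 1 in each direction, beside 2.68% and 11.3% of all tested genes. In KP4 it was ARID1B, a SWI/SNF subunit, at 177, 179 and 181 CPM against 87.2, 85.5 and 93.6 CPM (1.01). In MiaPaca2 it was SMARCA4, the SWI/SNF ATPase (-1.09).

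The genes with the largest differences in favour of KP4 had smaller folds than those in favour of MiaPaca2. NRCAM, a neuronal cell adhesion molecule (ENSG00000091129, chr7:108147623-108456717), was at 9.98, 9.75 and 8.20 CPM in KP4 and 0.284, 0.346 and 0.694 CPM in MiaPaca2 (4.37 ± 0.24, edgeR adjusted p = 3e-14). SLITRK4, a synaptic transmembrane protein gene (ENSG00000179542, chrX:143622790-143635777), was at 10.4, 10.2 and 10.6 CPM in KP4 and 1.02, 0.494 and 0.449 CPM in MiaPaca2 (3.97 ± 0.21, edgeR adjusted p = 1.4e-14). MMP10, the secreted protease stromelysin 2 (ENSG00000166670, chr11:102770503-102780628), was at 20.5, 22.4 and 20.6 CPM in KP4 and 2.48, 1.14 and 2.00 CPM in MiaPaca2 (3.47 ± 0.17, edgeR adjusted p = 2.2e-13). In all 3 the MiaPaca2 libraries held counts and lay below every KP4 library. NCAM1, the neural adhesion molecule CD56, was at 9.98, 10.3 and 12.2 CPM in KP4 and 1.38, 1.68 and 1.88 CPM in MiaPaca2 (2.71). The rest of the 10 largest were TMEM98 (3.53), AUTS2 (3.05), the membrane protease gene MME (2.57), PLEKHG1 (2.41), ZNF813 (2.38) and AMOT (2.34). In DMSO the difference was larger for NRCAM (5.41), SLITRK4 (4.25), MMP10 (5.05), NCAM1 (3.34), TMEM98 (4.12), AUTS2 (3.91), MME (3.33), PLEKHG1 (3.25) and ZNF813 (3.51), and it was smaller for AMOT (2.11). The interaction passed for MMP10 (edgeR adjusted p = 0.00025), AUTS2 (0.031), PLEKHG1 (0.021) and ZNF813 (0.044) and not for the other 6. Just outside the limit of 0.25 for the ratio of MiaPaca2 to KP4 stood FLRT2 at 0.254, and just inside it NPTX1 at 0.241, both chosen for that place.

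Proliferation genes were higher in KP4 by small amounts. Of 36 mitosis genes 33 were higher in KP4, beside 26% of all tested genes, 1 was higher in MiaPaca2 (the phosphatase gene CDC25B, -0.46) and 0 passed 2-fold. Of 42 DNA replication genes 30 were higher in KP4 and 1 in MiaPaca2 (the clamp loader RFC3, -0.42), again with 0 at 2-fold. The medians were 0.39 for mitosis and 0.24 for replication under trametinib, and -0.00 and -0.13 in DMSO. The interaction was called towards KP4 for 31 of the 36 and 30 of the 42, beside 16.2% of all tested genes. Towards MiaPaca2 it was called for 0 of either list, beside 19.9% of all tested genes. MKI67, which encodes the proliferation antigen Ki-67, was at 920, 941 and 928 CPM in KP4 and 721, 744 and 721 CPM in MiaPaca2 (0.35 ± 0.04, edgeR adjusted p = 5.5e-09). TTK, a spindle checkpoint kinase gene, showed the largest mitotic difference, with 77.0, 81.7 and 78.3 CPM in KP4 and 50.5, 46.4 and 46.5 CPM in MiaPaca2 (0.72). BIRC5, which encodes survivin, differed by 0.61, and among replication genes PRIM1 (primase) differed by 0.59, RRM2 (ribonucleotide reductase) by 0.56 and CDC6, which loads the helicase, by 0.50. In these bulk libraries fewer cycling cells and less RNA per cycling cell cannot be told apart.

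Genes of cell cycle exit were divided. Of 20 tested, 3 were higher in KP4 and 11 in MiaPaca2, beside 26% and 29.2% of all tested genes. CDKN1A, the inhibitor p21, was at 76.2, 73.3 and 75.1 CPM in KP4 and 48.0, 42.7 and 41.6 CPM in MiaPaca2 (0.76), and CCNG2 and RBL1 were also higher in KP4, by 0.36 and 0.31. The 2-fold calls were all in MiaPaca2. TXNIP, a brake on glucose uptake and thioredoxin, was at 0.562, 0.411 and 0.556 CPM in KP4 and 160, 158 and 158 CPM in MiaPaca2 (-8.26 ± 0.11). GAS1, a growth-arrest gene, differed by -8.12, the antiproliferative BTG2 by -3.48 (12.5, 13.8 and 12.9 against 142, 144 and 151 CPM) and the transcription factor KLF4 by -1.51. BTG2 moved away from KP4 with trametinib, with an interaction of -2.46.

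Of 17 genes of the BCL2 family, which holds blockers and promoters of cell death, 4 were higher in KP4 and 10 in MiaPaca2. Over all tested genes 26% were higher in KP4, a share near that of the 4, and 29.2% in MiaPaca2. BCL2 itself, which blocks apoptosis, was the only 2-fold call in KP4, at 4.71, 5.46 and 5.12 CPM against 2.64, 2.37 and 2.24 CPM (1.07). MCL1, another blocker, was at 183, 186 and 189 CPM in KP4 and 309, 320 and 322 CPM in MiaPaca2 (-0.77), after a DMSO difference of 0.08 that did not pass. BCL2L11, the death activator BIM that ERK keeps low, was at 33.4, 30.8 and 33.7 CPM in KP4 and 54.3, 51.8 and 52.8 CPM in MiaPaca2 (-0.70), with an interaction of -0.02 that did not pass. BCL2A1 differed by -1.37 after a DMSO difference of 1.13, and the effector BAK1 by -1.03.

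Receptor and adhesion genes differed in both directions. Of 40 receptor tyrosine kinases and ligands 16 were higher in KP4 and 12 in MiaPaca2, the latter close to the 29.2% of all tested genes (26% for KP4), with a median of 0.21 under trametinib and 0.55 in DMSO. MET, the receptor of hepatocyte growth factor, was at 480, 488 and 494 CPM in KP4 and 255, 261 and 261 CPM in MiaPaca2 (0.91), and EGFR at 297, 285 and 294 CPM against 407, 405 and 417 CPM (-0.49). The 2-fold calls in KP4 were KIT and NTRK2, both under 3 CPM, and DDR2, a collagen receptor at 2.18, 2.39 and 2.56 against 75.4, 74.5 and 79.2 CPM (-5.01), RET (-3.43) and FGFR3 (-2.04) were among the 7 in MiaPaca2. Of 18 Eph receptors and ephrins 10 were higher in MiaPaca2 and 1 in KP4, EPHB2 (0.40). Among 17 integrins 8 were higher in KP4 and 6 in MiaPaca2. ITGB4, the epithelial beta 4 chain, was higher in MiaPaca2 (-1.25) and ITGA7, the laminin receptor chain, in KP4 (0.91).

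Epithelial and mesenchymal lists both held more genes higher in MiaPaca2 than in KP4. Of 22 epithelial and ductal genes 4 were higher in KP4 and 11 in MiaPaca2, and of 27 mesenchymal genes 4 were higher in KP4 and 16 in MiaPaca2. Over all tested genes 26% were higher in KP4 and 29.2% in MiaPaca2. The medians were -0.63 for both lists. KRT19, a ductal keratin, was at 3.90, 3.92 and 5.34 CPM in KP4 and 96.7, 98.9 and 95.9 CPM in MiaPaca2 (-4.47), and the tight junction gene CLDN4 differed by -6.74. CDH1, E-cadherin, was the other way round at 5.27, 5.16 and 4.45 CPM in KP4 and 2.15, 2.62 and 2.12 CPM in MiaPaca2 (1.12). Of mesenchymal genes SNAI2, the repressor Slug, had 0 counts in KP4 and was at least 275-fold higher in MiaPaca2 at 9.18, 11.5 and 9.51 CPM, and S100A4 (-7.18) and MYL9 (-5.41) were also far higher there. CDH2, N-cadherin, was higher in KP4 at 171, 173 and 175 CPM against 74.2, 70.7 and 74.5 CPM (1.24). VIM, the filament vimentin, was at 3085 CPM in KP4 and 4956 in MiaPaca2 (-0.68), and the repressor ZEB1 did not pass (edgeR adjusted p = 0.42). TP63, a basal epithelial factor, differed by -6.20 among the 20 tested pancreatic identity and lineage factors, of which 4 were higher in KP4 and 11 in MiaPaca2. Markers of other cells were checked beside these lists. Of 19 acinar markers 10 had 0 counts in all 12 libraries, PRSS1, CPA1, PNLIP and AMY2A among them. Under trametinib 14 fibroblast markers summed to 17.9 to 19.0 CPM in KP4 and 259 to 275 CPM in MiaPaca2, most of it COL1A2. The 10 endothelial markers summed to 2.32 to 3.04 CPM in KP4 and 8.64 to 10.8 CPM in MiaPaca2, where EMCN made up the largest part, and KDR had 0 counts in all 12 libraries. Their part in the mesenchymal and matrix differences was not tested.

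Matrix genes also split by chain. Of 32 collagens and laminins 10 were higher in KP4 and 16 in MiaPaca2, beside 26% and 29.2% of all tested genes. COL4A1, a chain of basement membrane collagen, had 0 counts in all 6 KP4 libraries and was at 21.1, 21.2 and 20.9 CPM in MiaPaca2, at least 577-fold higher, and COL4A2, its partner chain, had 1 count in KP4 and a count ratio of 3559 (95% interval 638 to 140633). The other basement membrane chains COL4A5 (57.0, 53.3 and 53.7 against 24.7, 26.1 and 25.7 CPM, 1.10) and COL4A6 (1.41) were higher in KP4. Among 22 cadherins and protocadherins 6 were higher in KP4, near the share of all tested genes, and 11 in MiaPaca2. PCDH7 was among those in KP4 (1.16) and PCDH9 among those in MiaPaca2 (-6.94). Of 20 matrix proteases 7 were higher in KP4 and 8 in MiaPaca2.

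Metabolic lists moved in different directions. Of 31 cholesterol and fatty acid synthesis genes 22 were higher in KP4 and 2 in MiaPaca2, beside 26% and 29.2% of all tested genes. The list median was 0.53 under trametinib and 0.15 in DMSO. SQLE, squalene epoxidase, was at 296, 289 and 299 CPM in KP4 and 126, 131 and 122 CPM in MiaPaca2 (1.22), and MSMO1 (1.08), INSIG1 (1.02) and HMGCS1 (1.01) were the other 2-fold calls. TM7SF2, a sterol reductase gene, was higher in MiaPaca2 (-2.44). Of 13 genes of the mitochondrial genome 9 were higher in KP4 and 0 in MiaPaca2, and MT-ND4, a complex I subunit, differed by 0.77. Their share of counts was 5.48% to 5.75% in KP4 and 4.02% to 4.25% in MiaPaca2. Of 26 glycolysis genes 3 were higher in KP4, among them the glucose transporter SLC2A3 (1.05) and GAPDH (0.39), and 15 in MiaPaca2, with PFKM, muscle phosphofructokinase, at -1.86. In the nucleotide salvage list CDA, cytidine deaminase, which inactivates gemcitabine, had 0 counts in KP4 under trametinib and was at least 147-fold higher in MiaPaca2 at 4.71, 5.18 and 6.24 CPM. DCK, the kinase that activates gemcitabine, was at 35.0, 37.6 and 32.7 CPM in KP4 and 21.9, 22.8 and 20.8 CPM in MiaPaca2 (0.69).

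Iron, lysosome and autophagy genes, the theme of the series title, had list medians near 0. Of 69 lysosome genes 18 were higher in KP4 and 31 in MiaPaca2 (median -0.13), beside 26% and 29.2% of all tested genes. The interaction was called for 10 of them towards KP4 and 34 towards MiaPaca2, beside 16.2% and 19.9% of all tested genes, and for 5 and 23 of 52 autophagy genes. Of the autophagy genes 16 were higher in KP4 and 18 in MiaPaca2 (-0.03), of 20 V-ATPase genes 6 and 4 (0.01), and of 29 iron genes 10 and 10 (0.03). Single members differed by far more. FTL, the ferritin light chain, was at 559, 565 and 572 CPM in KP4 and 2353, 2515 and 2419 CPM in MiaPaca2 (-2.10), while FTH1, the heavy chain, stood at 1350 and 1256 CPM and did not pass (edgeR adjusted p = 0.26), though it passed in a fit to the 6 trametinib libraries alone (5.46e-06, in a range up to 0.424 over 21 alternatives). Both ferritin genes have processed pseudogenes that can share reads. TFRC, the transferrin receptor, was at 489, 487 and 480 CPM in KP4 and 391, 377 and 379 CPM in MiaPaca2 (0.34), and the ferritinophagy receptor NCOA4 differed by -0.19. The lysosomal proteases CTSZ (-6.51) and CTSH (-5.52) were nearly absent in KP4, and NPC1, the cholesterol exporter of lysosomes, was higher there (0.78). SQSTM1, the autophagy receptor p62, was at 3579, 3558 and 3586 CPM in KP4 and 2257, 2229 and 2192 CPM in MiaPaca2 (0.68), and the lysosomal gene regulators TFEB (0.72) and TFE3 (0.38) were higher in KP4 while MITF did not pass (edgeR adjusted p = 0.87).

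Stress and redox lists were mixed. Of 30 NRF2 and ferroptosis defence genes 14 were higher in KP4 and 11 in MiaPaca2, beside 26% and 29.2% of all tested genes. SLC7A11, the cystine importer, was at 125, 130 and 116 CPM in KP4 and 43.8, 42.6 and 39.9 CPM in MiaPaca2 (1.55), and ABCC2, a conjugate exporter, differed by -4.97. Of 29 integrated stress response genes 10 were higher in each line. WARS1, the tryptophan tRNA synthetase, which interferon also induces, was at 118, 124 and 130 CPM in KP4 and 1712, 1731 and 1771 CPM in MiaPaca2 (-3.81 ± 0.04, edgeR adjusted p = 7.4e-29). NUPR1, a stress-induced nuclear protein gene, was at 1.41, 1.35 and 1.04 CPM in KP4 and 21.6, 19.1 and 20.7 CPM in MiaPaca2 (-4.01). The YAP/TEAD list had 12 higher in KP4 and 9 in MiaPaca2 of 27, and the iron-sulfur list 9 and 4 of 30. The 9 of each list lie near the shares of all tested genes, 29.2% for MiaPaca2 and 26% for KP4.

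**Figure D5:**
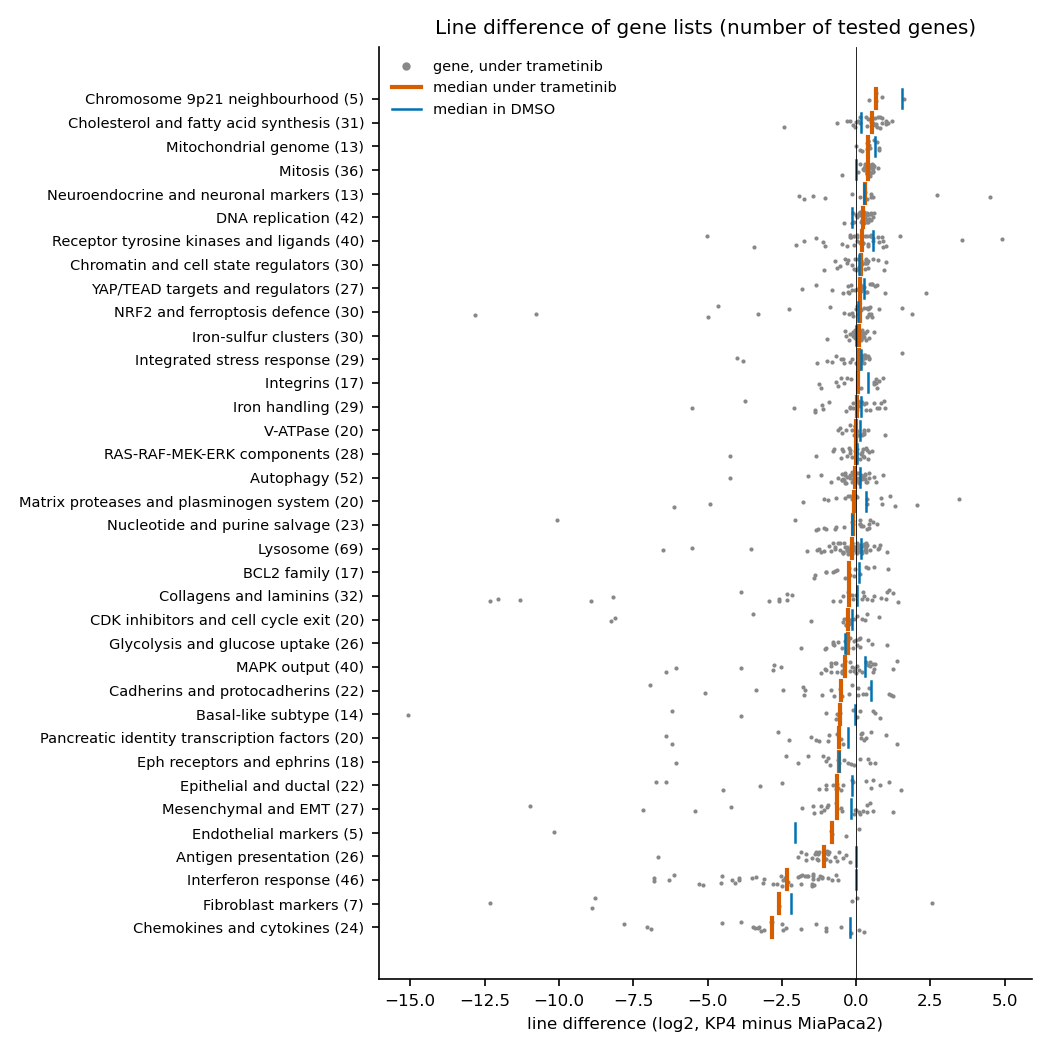
Line difference (log2, KP4 minus MiaPaca2) under trametinib of each tested gene in the lists with at least 5 tested genes, as grey points, with the list median under trametinib in orange and in DMSO in blue. The medians of the chemokine list (-2.84) and the interferon list (-2.33) lie far to the left of their DMSO medians (-0.21 and -0.00), and those of mitosis (0.39) and cholesterol synthesis (0.53) lie to the right of theirs (-0.00 and 0.15).

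The classes defined by a changed line difference are described by their leading genes. CHI3L2, a chitinase-like secreted protein gene, was at 0.907 CPM in KP4 and 0.603 in MiaPaca2 in DMSO, and at 0.246, 0.187 and 0.111 CPM in KP4 and 24.1, 19.8 and 24.9 CPM in MiaPaca2 under trametinib. Its difference was -6.94 ± 0.25 and its interaction -7.53 ± 0.45 (edgeR adjusted p = 1.4e-12). C3, the central complement protein gene, emerged in the same way with 1.09, 0.635 and 0.853 CPM in KP4 and 20.3, 18.5 and 16.7 CPM in MiaPaca2 (interaction -5.08). RASGRP3, TMEM140 and IL4I1 followed with interactions of -5.22, -4.46 and -4.28. MMP1, interstitial collagenase, was at 11.5 and 14.1 CPM in DMSO. Under trametinib it had 3 counts in KP4 and 2.32, 3.95 and 2.61 CPM in MiaPaca2, a count ratio of 79.4 (95% interval 26.8 to 388). No emerged protein-coding gene on the KP4 side reached 5 CPM; the non-coding MIR600HG, named here after its values were seen, averaged 16.2 ± 2.01 CPM in KP4 and 6.12 ± 1.13 CPM in MiaPaca2 under trametinib (SD, n = 3 each).

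Other differences closed or reversed. CALB2, which encodes calretinin, had been at 20.2 CPM in KP4 and 149 in MiaPaca2 in DMSO and was at 14.0, 15.7 and 16.2 CPM and 16.0, 14.0 and 15.0 CPM under trametinib, where the libraries overlapped (edgeR adjusted p = 0.84). TNS4, an integrin-linked adaptor gene, narrowed from 0.315 and 7.97 CPM to levels of 0.53 CPM or less in all 6 trametinib libraries. ALDH1A3, a retinal dehydrogenase gene, narrowed from -2.79 to -0.29, and KLF2, PHLDA3 and AIFM2 narrowed from the MiaPaca2 side as well. From the KP4 side HAS2, hyaluronan synthase, narrowed from 2.14 to 0.02, and CTSS, CALCRL, IRF7 and WNT4 were among the others with the largest interactions. IRF7 was higher in MiaPaca2 under trametinib. Of genes that turned to MiaPaca2, PLXNA2, a semaphorin receptor, went from 2.43 and 1.13 CPM to 0.773, 0.822 and 1.08 CPM in KP4 and 7.84, 6.67 and 7.02 CPM in MiaPaca2 (-3.01). LGALS9, galectin 9, went from 1.35 to -2.01, and KLHDC7B, NDST3 and PRSS22 turned too, PRSS22 at under 1 CPM in all trametinib libraries. RPRML, the single gene that turned to KP4, stood at 0.632, 0.673 and 0.519 CPM in KP4 and 0.0812, 0.197 and 0.367 CPM in MiaPaca2 (1.47, edgeR adjusted p = 0.014), and it did not pass without MiaPaca2 trametinib replicate 1 (0.0855, in a range from 0.0047 over 21 alternatives).

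Line differences were also described by position and by gene type. The median difference of protein-coding genes per chromosome ran from -0.24 on chromosome 21 (121 genes) to 0.18 on chromosome 9 (543 genes), where 49.2% of genes were higher in KP4. Medians were also taken over 269 windows of 10000000 bases with at least 15 tested genes. Those of the 2 states correlated across windows with a Pearson r of 0.803 and a Spearman rho of 0.775. Across the 16133 single genes the line differences of the 2 states already had r = 0.845 and rho = 0.646. The window correlation therefore cannot separate position from the differences of single genes, and genes in a window are not independent. Of 658 lincRNA genes 20.2% were 2-fold higher in MiaPaca2 and 5.62% in KP4, compared with 10.9% and 2.28% of 13275 protein-coding genes.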

How the data were processed

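Polyadenylated RNA was measured in 12 libraries, 3 per group, prepared per the labels' protocols with a PureLink RNA kit and the Tecan Universal mRNA Plus kit. The authors deposited a single table of raw read counts, in whole numbers and without normalization. STAR, DESeq2 and the genome build GRCh38 (hg38) are named per the submitters' processing notes. Their versions, the counting program, its annotation, its strand setting and its handling of multimapping reads were not given in the sources used here. Near-identical gene copies are for that reason uncertain, as are genes that overlap on opposite strands. The table held 58735 genes, 31413 with a count, 0 lines that name no gene and 0 columns of no sample. Names, gene types and GRCh38 positions come from GENCODE 29.

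Genes were filtered with filterByExpr (16133 tested) and scaled by TMM in edgeR 4.0.16 (R 4.3.3). edgeR's quasi-likelihood test with robust shrinkage was fitted with 4 group means over all 12 libraries, which share the estimate of spread (biological coefficient of variation 5.47%). Contrasts were KP4 minus MiaPaca2 under trametinib, the same in DMSO, and their difference. P-values were adjusted by Benjamini-Hochberg over all tested genes, with a threshold of 0.05, and 2-fold means a log2 size of at least 1. A group at 0 counts has a floor of 3 counts over the group, 0.0365 CPM in KP4 trametinib, 0.0432 in MiaPaca2 trametinib, 0.0380 in KP4 DMSO and 0.0427 in MiaPaca2 DMSO. Folds against it are lower bounds, ratios over 1 to 3 counts carry an exact 95% interval, and both cover counting error only. No pair of libraries agreed within sampling noise, so all were kept as separate samples. The fit was tested on simulated counts with 200 changed genes.

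Alternatives were RLE scaling, library size only, no filter, a filter of 1 CPM in 3 libraries, limma-voom (limma 3.58.1), DESeq2 1.42.0, no robust shrinkage, a replicate block, the 6 trametinib libraries alone, and leaving out each library. The comparison, the gene lists and the tests were chosen with earlier results of these data known. The text names, by rule, protein-coding genes that passed and reach 5 CPM: the 10 largest differences in each direction without overlap and up to 6 interactions in each class. It also names up to 3 genes at each end of each list, a set of RAS pathway, iron, identity and survival genes, and the members of any group of 5 or fewer. Other genes are said, or shown by their place in a run, to be chosen after their values were seen. Promoters are those of RefSeq on GRCh38.p14. Some genes that these rules name are not reported here, although they stay in every fit and count.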

Additional observations from a re-analysis of the deposited data

Results flagged for a closer look

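The line difference changed with trametinib, by edgeR's interaction term, for 5828 genes. Named genes with a called interaction of at least 2-fold on the class rule or the fixed list are given here as log2 interactions, in which a negative value means a move towards MiaPaca2. Moves towards MiaPaca2 were found for the emerged genes CHI3L2 (-7.53), MMP1 (-5.85), RASGRP3 (-5.22), C3 (-5.08), TMEM140 (-4.46) and IL4I1 (-4.28). They were also found for the genes that turned, KLHDC7B (-5.45), PLXNA2 (-4.10), FOS (-3.94), PRSS22 (-3.56), NDST3 (-3.55) and LGALS9 (-3.36), and for CCND1 (-1.05). Among genes that had been higher in KP4 in DMSO, CTSS moved by -4.41, CALCRL by -2.50, IRF7 by -2.41, WNT4 by -2.26 and HAS2 by -2.12. Moves towards KP4 were found for TNS4 (4.09), KLF2 (2.95), CALB2 (2.91), PHLDA3 (2.62), ALDH1A3 (2.50) and AIFM2 (2.45). The difference itself was tested in each of these, and all 6 libraries per line entered the test. Groups held 3 libraries, so no single library was tested as an outlier.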

How the results depend on the processing

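Counts of called genes and classes gave 404 values over the alternatives, and 393 stayed within 1.5 times the main count. The exceptions were small or rested on 1 library. Emerged genes on the KP4 side, 19 in the main analysis, numbered 8 under the strict filter and 9 to 21 when single libraries were left out. The gene that turned to KP4 became 0 to 2 genes. Narrowed genes on the KP4 side, 320, ran from 254 to 524 when single libraries were left out, with 524 without MiaPaca2 DMSO replicate 2; the cause was not tested. Without that library 459 genes were 2-fold higher in KP4 and 1927 in MiaPaca2 under trametinib. The calls under trametinib were 4423 higher in KP4 and 4538 in MiaPaca2 with RLE scaling, 4520 and 4478 with library size only, 4345 and 4480 with DESeq2, 4278 and 4770 with limma-voom, and 4686 and 5043 with the 6 trametinib libraries alone. With the replicate number as a block they were 4147 and 4691, with 415 and 1826 at 2-fold. The labels give no shared culture or day for a replicate number, and the deviations of same-numbered libraries from their group means correlated at -0.024 to 0.033, so the numbers do not pair the samples, and not every library correlated best with its own number. The block moved no count by over 1.5 times. Of list medians larger in size than their SD over pairs of libraries, 3 lost or changed their sign in an alternative. The integrin median was 0 with no filter. The autophagy median ran from -0.0334 to 0.0166 when single libraries were left out (0.0166 without KP4 trametinib replicate 1). The median of the classical subtype list, with 2 tested genes, ran from -0.25 (without KP4 trametinib replicate 3) to 0.59. Sign changes of medians smaller than that SD were not counted. Of 307 named gene results 286 kept their direction and their side of the threshold in every alternative run, and 21 did not, IRF9, ERAP1, CCL2, ETV4, DUSP6, FOSL1, FTH1 and RPRML among them. The setting medians of all genes ran from -0.01 to 0.03. Genes under about 1 CPM rest on few counts, and line differences in them are the least certain.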

Other observations

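Endothelial and acinar lists held few transcripts in either line, but single members stood out. EMCN, which encodes the endothelial surface protein endomucin, had 0 counts in all 6 KP4 libraries and was at 5.69, 5.38 and 5.92 CPM in MiaPaca2 under trametinib, at least 155-fold higher. C7, a complement gene of the fibroblast list, had 0 counts in KP4 under trametinib and was at 2.03, 2.57 and 2.08 CPM in MiaPaca2. FBLN1, a matrix glycoprotein gene, had 2 counts over the KP4 trametinib libraries and was at 12.6, 15.0 and 14.0 CPM in MiaPaca2. PTPRC, the leukocyte phosphatase CD45, was at 0.492, 0.560 and 0.630 CPM in KP4 and 4.75, 3.01 and 5.43 CPM in MiaPaca2 (-2.97 on the log2 scale, edgeR adjusted p = 3.3e-09), while CD3E and TYROBP had 0 counts in all 12 libraries.

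Neuroendocrine and neuronal genes were divided between the lines, with 6 of 13 higher in KP4 and 5 in MiaPaca2 under trametinib. Over all tested genes 26% were higher in KP4 and 29.2% in MiaPaca2. ELAVL2, a neuronal RNA-binding protein gene, was at 2.25, 2.88 and 1.97 CPM in KP4 and 0.812, 0.987 and 0.530 CPM in MiaPaca2 (1.61). CHGB, a secretory granule protein gene, was at 22.0, 20.7 and 22.9 CPM in KP4 and 13.7, 16.3 and 14.0 CPM in MiaPaca2 (0.58). SYT1, a synaptic vesicle calcium sensor gene, was at 8.33, 9.04 and 8.01 CPM in KP4 and 32.1, 32.0 and 31.5 CPM in MiaPaca2 (-1.91). The secretogranin gene SCG2 also differed towards MiaPaca2 (-1.76).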
